A study of Mus musculus with 4 samples.

Results

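10 genes of detoxification and oxidative stress were examined in cultured mouse keratinocytes, the epithelial cells of the epidermis, by the rule that a probe set of the array is annotated to 1 of their symbols. They are Gsta3, Gsta4, Gstm1, Gsto1, Mgst1, Cyp1b1, Aldh1a3, Aldh3a1, Hmox1 and Nqo1. They are 10 of the 12393 genes that had a probe set of their own on the Affymetrix Mouse Expression Array 430A, and all 10 were among the 7461 genes that reached the median level of the table, 20.04 intensity units, on at least 1 array. Their 20 probe sets are part of 22626.

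All cells were primary keratinocytes of C57BL/6 tail skin with a floxed Prdm1 gene, which encodes the repressor Blimp-1 and which Cre recombinase can cut. CKO 4OHT cells carried CreER, a tamoxifen-dependent Cre, and were given 4-hydroxytamoxifen (4OHT) from day 1 to day 3 of culture. CKO EtOH cells carried CreER and were given the solvent ethanol over the same days. Control 4OHT and control EtOH cells had the floxed gene without CreER and were given the drug or the solvent. All were collected on day 5. The sources used here name neither the promoter that drives CreER nor the number of mice per culture. CKO and control cells came from different mice, so a difference between genotypes is also one between animals.

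Each group was 1 array. There was thus no replicate, no error and no test, 4 arrays limit the precision of every value, and the word higher or lower in a count means a difference of at least 2-fold. Levels are linear intensities after RMA, and differences are on the log2 scale. In bulk RNA, fewer cells of a type cannot be told apart from less RNA per cell.

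Glutathione S-transferases join the tripeptide glutathione to reactive compounds, among them aldehydes that arise when membrane lipids are oxidised. Aldehyde dehydrogenases oxidise such aldehydes to acids, and some of them also make retinoic acid, a regulator of epidermal differentiation. Many of these genes are switched on by NRF2, a transcription factor that binds antioxidant response elements and is held in check by KEAP1, and others by the aryl hydrocarbon receptor, which binds xenobiotic response elements. Keratinocytes are known to use both systems at the body surface.

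Prdm1 was at 6.43 in CKO 4OHT, 17.0 in CKO EtOH, 52.4 in control 4OHT and 20.7 in control EtOH. It was lowest on the array of cells with both CreER and drug, although the sources used here do not name the floxed exons, so the probe set need not read the deletion. Both CKO values were under the median of the table and are imprecise. In cells without CreER, Prdm1 was 2.53-fold higher with the drug than with the solvent. The keratinocyte genes Krt5 and Krt14 were bright on all arrays, with Krt5 between 3298 and 3774. The suprabasal keratin Krt1 differed widely, at 21.8 in CKO 4OHT, 205 in CKO EtOH, 246 in control 4OHT and 136 in control EtOH. Of the markers of other cells, 0 of 6 endothelial, 1 of 8 fibroblast and 3 of 10 myeloid, dendritic and T cell markers reached the median of the table. The melanocyte list had 4 of 7 markers above it, with a summed level of 155 in CKO 4OHT, against 127 to 138 in the other cultures. The sebaceous list had 5 of 9, with 1702 in CKO 4OHT, against 1280 to 1387 in the others. Most of that sum was Plin2, a lipid droplet protein, at 990.4 in CKO 4OHT against 582 to 653, while Scd1, a fatty acid desaturase, lay the other way at 287 against 362 to 441. Cidea, of the same list, was higher in both drug-treated cultures, at 56.4 in CKO 4OHT, 26.7 in CKO EtOH, 52.6 in control 4OHT and 17.0 in control EtOH. The hair follicle list had 4 of 10 above the median, with a sum of 3518 in CKO 4OHT against 3557 to 3784. Most of that sum was the keratin Krt17, at 3118 in CKO 4OHT against 3219 to 3403. Krt15 and Lgr5, of the same list, stayed under the median on all arrays. The companion layer keratin Krt75 was at 166 and 80.3 in CKO 4OHT and CKO EtOH, and at 144 and 73.0 in control 4OHT and control EtOH. The list of myeloid, dendritic and T cell markers summed to 515 in CKO 4OHT against 426 to 535. Its 3 genes that reached the median were Cd3e, Cd68 and Epcam. Epcam, which epithelial cells also express, was most of the sum in CKO 4OHT, at 325 against 161 to 245 elsewhere. Cd68 differed by -1.01 from control 4OHT and Epcam by 1.01 from CKO EtOH. Krt10, a suprabasal keratin, was at 249 in CKO 4OHT, 328 in CKO EtOH, 352 in control 4OHT and 209 in control EtOH. The part of these markers and of Krt1 in the results below was not tested.

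The 10 genes split in CKO 4OHT cells. Against CKO EtOH, 3 were higher (Gsta4, Aldh1a3 and Hmox1), 4 were lower (Gsta3, Gstm1, Mgst1 and Cyp1b1) and 3 were neither (Gsto1, Aldh3a1 and Nqo1). Of all measured genes, 1.78% were higher and 1.86% lower in that comparison. The 10 genes were chosen with earlier results of these data known, so their counts beside such shares are descriptions and no independent support. Against control 4OHT, Gsta4 alone was higher, the same 4 genes were lower, and 1.45% and 2.24% of all measured genes were higher and lower. The median difference of the 10 genes was 0.28 against CKO EtOH and -0.09 against control 4OHT, beside 0.01 for all measured genes in each comparison, so the group had no common direction. Both comparisons use the CKO 4OHT array, so they are not independent of each other.

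Gsta3, Gstm1, Mgst1 and Cyp1b1 were, in CKO 4OHT, lower by 2-fold or more than on each of the other arrays, as were 1.09% of all measured genes. Of these 4, Gsta3, Gstm1 and Cyp1b1 were under the median of the table in CKO 4OHT. Mgst1 alone was left in the count when 16 units were added before the log or when the level minimum was the 75th percentile, and 0 were left with the mean of all probe sets of a gene. Of all genes measured in these settings, 0.898%, 2.02% and 1.54% stood apart in either direction. Without these changes, none of the 10 was higher by 2-fold or more in CKO 4OHT than on each other array, where 0.751% of all genes were. On control 4OHT, where 0.281% of all genes stood above and 0.0268% below the rest, no enzyme gene did, nor on either solvent array. Aldh1a3 and Hmox1 also had their highest level in CKO 4OHT, but control 4OHT came second within 2-fold. With control 4OHT left out, an alternative added after the values were seen, these genes were 2.76-fold and 2.54-fold above the nearer of CKO EtOH and control EtOH, and 1.34% of all genes stood above and 1.31% below in that count.

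**Figure D1:**
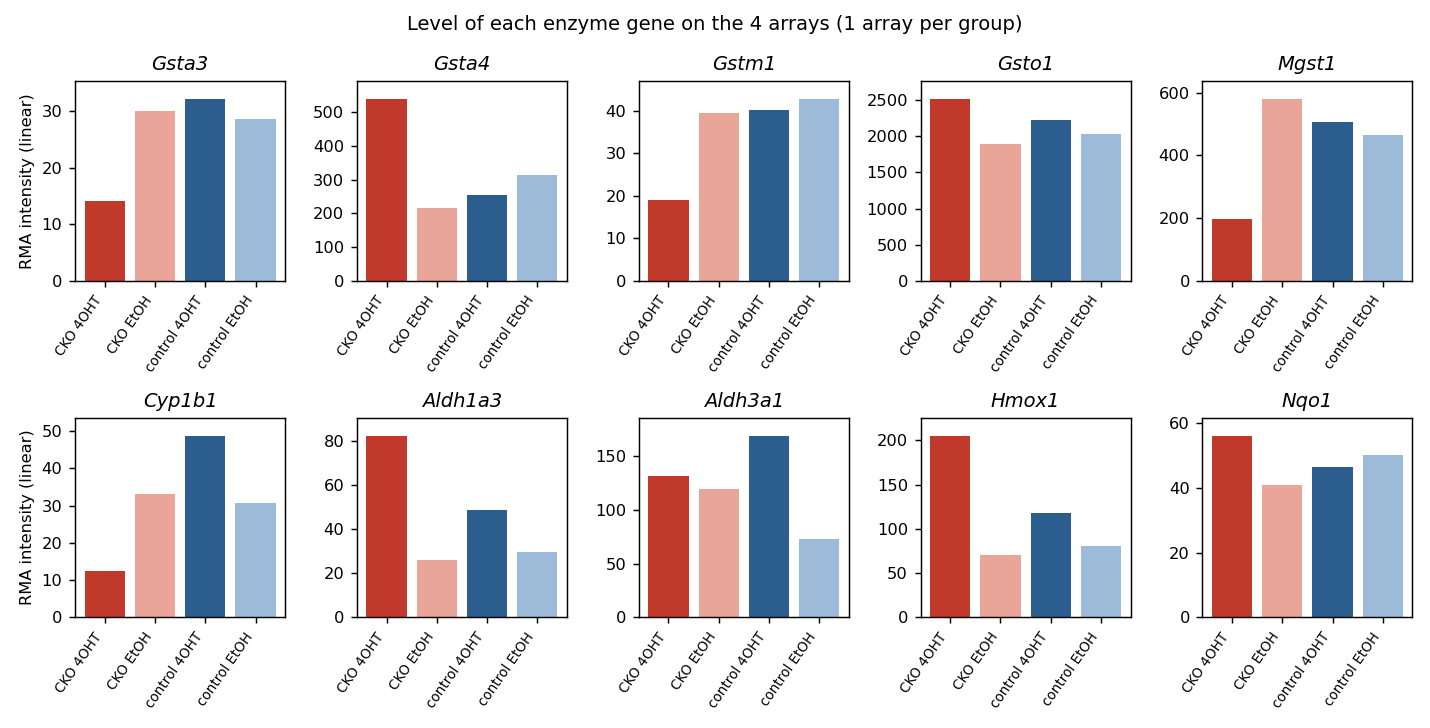
RMA intensity (linear axis from 0, a scale per gene) of the 10 enzyme genes in CKO 4OHT, CKO EtOH, control 4OHT and control EtOH, with 1 array per bar and no error. Gsta3, Gstm1, Mgst1 and Cyp1b1 are lowest in CKO 4OHT, Gsta4, Aldh1a3 and Hmox1 are highest there, and Aldh3a1 is highest in control 4OHT.

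Among the glutathione S-transferases, Mgst1 showed the widest gap on the lower side. It encodes the microsomal enzyme, which sits in membranes and also reduces lipid hydroperoxides. Its level was 197 in CKO 4OHT, 579 in CKO EtOH, 506 in control 4OHT and 466 in control EtOH. The 3 other arrays lay within 1.24-fold of each other and CKO 4OHT was 2.37-fold below the nearest of them. The difference was -1.56 against CKO EtOH, rank 35 from the bottom of 7461 genes, and -1.36 against control 4OHT. It was the 1 gene of the 4 lower ones that stayed above the median of the table in CKO 4OHT. A second Mgst1 probe set (1415898_at) was near the floor, at 3.78 to 4.51, with 0.14 against CKO EtOH and -0.11 against control 4OHT.

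Gsta3, an alpha class enzyme that detoxifies aflatoxin in mouse, was at 14.1 in CKO 4OHT, 30.1 in CKO EtOH, 32.1 in control 4OHT and 28.6 in control EtOH. It differed by -1.09 from CKO EtOH and by -1.19 from control 4OHT, and the CKO 4OHT value lay under the median of the table. The 3 other arrays were within 1.12-fold, so Gsta3 was low on a single array. A second Gsta3 probe set (1423437_at) was near the floor, at 3.64 in CKO 4OHT and 5.24 to 5.83 on the others.

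Gstm1, of the mu class, was at 19.0 in CKO 4OHT, 39.4 in CKO EtOH, 40.3 in control 4OHT and 42.7 in control EtOH. This made -1.05 against CKO EtOH and -1.08 against control 4OHT. The probe set (1416416_x_at) is of a design that allows cross-hybridisation, and the mu class genes are close in sequence. The more specific set 1448330_at was at 19.1 in CKO 4OHT, with 26.4 to 29.0 elsewhere, which gives -0.47 and -0.61, the same sign at under 2-fold. The further Gstm1 sets, 1425626_at and 1425627_x_at, were near the floor at 6.33 to 9.29. They differed by 0.04 and -0.08 against CKO EtOH and by 0.12 and -0.32 against control 4OHT. Gstm2, another mu class gene, was at 14.9 in CKO 4OHT against 29.5 to 32.4, and whether the probe set of Gstm1 also reads Gstm2 was not tested.

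Gsta4 went the other way. It encodes the alpha class enzyme that prefers 4-hydroxynonenal, a toxic aldehyde of lipid oxidation. Its level was 539 in CKO 4OHT, 216 in CKO EtOH, 256 in control 4OHT and 314 in control EtOH. The difference was 1.32 against CKO EtOH and 1.08 against control 4OHT, and CKO 4OHT lay 1.72-fold above the nearest array. Between the solvent cultures, CKO EtOH minus control EtOH was -0.54, rank 80 from the bottom of 7461 genes, so CKO EtOH was the lowest array. The alpha class genes Gsta3 and Gsta4 thus differed from the other arrays in opposite directions on the same array.

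Gsto1, the omega class enzyme that reduces dehydroascorbate, was nearly level, at 2515 in CKO 4OHT, 1888 in CKO EtOH, 2231 in control 4OHT and 2034 in control EtOH. The 4 arrays spanned 1.33-fold, and a second probe set (1456036_x_at) differed by 0.35 against CKO EtOH beside 0.41 for the main one.

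Cyp1b1 is a monooxygenase that hydroxylates estrogens and polycyclic hydrocarbons and is a known target of the aryl hydrocarbon receptor. It was at 12.4 in CKO 4OHT, 33.1 in CKO EtOH, 48.8 in control 4OHT and 30.7 in control EtOH. It had the largest difference of the 10 genes against control 4OHT, -1.98, rank 28 from the bottom of all measured genes, and -1.42 against CKO EtOH. Its level in CKO 4OHT was under the median of the table and is imprecise, and the further Cyp1b1 probe sets, 1416613_at and 1432081_at, were at 4.67 to 7.09 on all arrays and differed by under 2-fold.

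The sequence before the start of the 4 lower genes is shown because they were low together on the CKO 4OHT array. The RefSeq promoter table (GRCm38.p6) had entries for 6 of the 10 genes, with 8 starts. Gsta4, Aldh1a3, Aldh3a1 and Hmox1 had no entry, so no gene that was higher against CKO EtOH could be looked at for these sequences. Each sequence below is the 250 bases before the first start of its gene, 5′ to 3′ on the gene's strand, and capitals mark a match on either strand to the core of the xenobiotic response element, GCGTG, or of the antioxidant response element, TGACNNNGC.
Gsta3, chr1:21240335-21240584, plus strand: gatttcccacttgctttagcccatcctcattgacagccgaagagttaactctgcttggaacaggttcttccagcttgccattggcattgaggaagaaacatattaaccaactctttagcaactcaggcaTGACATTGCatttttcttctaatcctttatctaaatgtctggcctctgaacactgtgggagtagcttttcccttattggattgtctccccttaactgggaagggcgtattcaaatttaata
Gstm1, chr3:108017974-108018223, minus strand: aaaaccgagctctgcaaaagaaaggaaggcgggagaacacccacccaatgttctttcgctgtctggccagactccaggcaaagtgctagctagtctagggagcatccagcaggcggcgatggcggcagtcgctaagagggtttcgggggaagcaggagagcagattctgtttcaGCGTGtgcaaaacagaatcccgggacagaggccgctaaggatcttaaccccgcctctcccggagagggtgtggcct
Mgst1, chr6:138140277-138140526, plus strand: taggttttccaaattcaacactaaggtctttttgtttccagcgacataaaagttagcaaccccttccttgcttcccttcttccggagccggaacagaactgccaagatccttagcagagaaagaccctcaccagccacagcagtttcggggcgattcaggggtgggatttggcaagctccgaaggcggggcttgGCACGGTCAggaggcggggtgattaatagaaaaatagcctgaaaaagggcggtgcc
Cyp1b1, chr17:79715062-79715311, minus strand: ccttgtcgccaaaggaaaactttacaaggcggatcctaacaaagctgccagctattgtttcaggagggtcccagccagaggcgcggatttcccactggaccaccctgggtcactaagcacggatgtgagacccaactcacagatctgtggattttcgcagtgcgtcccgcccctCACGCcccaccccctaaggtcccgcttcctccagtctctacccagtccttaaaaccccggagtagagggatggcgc
Gstm1 and Cyp1b1 had the xenobiotic core, and its first base in the direction shown lay 76 bases before the start in each. Of 32851 such windows in the table, 28.2% held that core. Gsta3 and Mgst1 had the antioxidant core, 121 and 56 bases before the start, and 10.2% of windows held it. Mgst1 and Gstm1 each had a second listed start, not shown. That of Mgst1 had neither core in its window, and that of Gstm1 had the xenobiotic core 231 bases before it. The first starts of Gsto1 and Nqo1 had neither core in this window. The letters GTGAAAG, part of the sequence that Blimp-1 binds, were in 0 of the 8 windows and in 3.57% of all windows. These matches describe letters and show no binding.

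Aldh1a3, which makes retinoic acid from retinaldehyde, was at 82.5 in CKO 4OHT, 26.0 in CKO EtOH, 48.6 in control 4OHT and 29.9 in control EtOH. Its difference of 1.67 against CKO EtOH was the highest of the 10 genes and ranked 33 from the top of all measured genes. Both drug-treated cultures were above both solvent cultures, and control 4OHT exceeded control EtOH by 0.70. The other Aldh1a3 probe sets had the same sign, with 1.20 (1427395_a_at) and 0.84 (1417642_at) against CKO EtOH, but only 0.34 and 0.20 against control 4OHT, where the main set had 0.76.

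Aldh3a1, an aldehyde dehydrogenase of surface epithelia such as the cornea, had a pattern of its own. It was at 132 in CKO 4OHT, 119 in CKO EtOH, 169 in control 4OHT and 73.4 in control EtOH. It was the single gene of the 10 that was higher with the drug in cells without CreER, by 1.20, where 1.27% of all measured genes were higher and 0.241% lower. With CreER the drug difference was 0.15. The gene was also 0.70 higher in CKO EtOH than in control EtOH, rank 17 from the top of 7461 genes, so the control EtOH array was the low one. No enzyme gene reached 2-fold in that comparison of solvent cultures, where 0.0536% of all genes were higher and 0% lower.

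Hmox1, heme oxygenase 1, splits heme into biliverdin, iron and carbon monoxide and is repressed by BACH1 and activated by NRF2. It was at 205 in CKO 4OHT, 70.5 in CKO EtOH, 118 in control 4OHT and 80.7 in control EtOH. Its difference was 1.54 against CKO EtOH and 0.80 against control 4OHT. As with Aldh1a3, both drug-treated cultures were above both solvent cultures, and the drug difference without CreER was 0.54.

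Nqo1, the quinone reductase widely used as a readout of NRF2, was at 56.1 in CKO 4OHT, 40.9 in CKO EtOH, 46.4 in control 4OHT and 50.1 in control EtOH. The arrays spanned 1.37-fold, and the difference was 0.46 against CKO EtOH and 0.27 against control 4OHT. Hmox1 and Nqo1, both known NRF2 targets, therefore did not differ by like amounts.

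**Figure D2:**
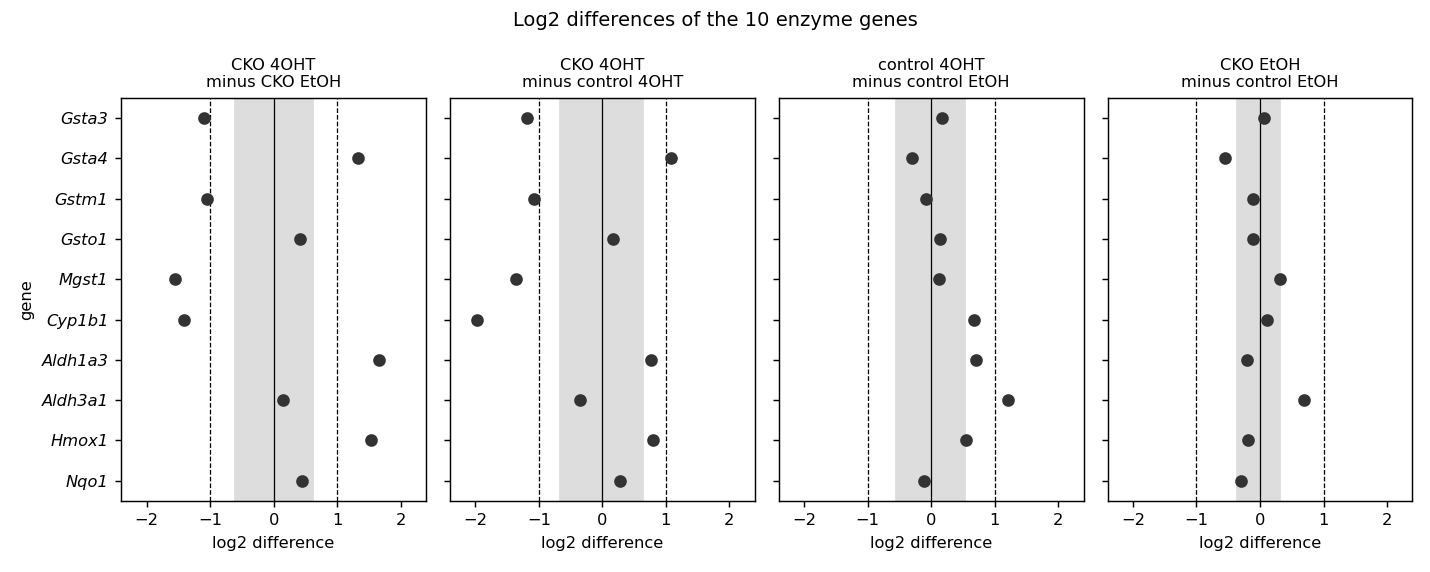
Log2 differences (horizontal axis) of the 10 enzyme genes in 4 comparisons, where dashed lines mark 2-fold and the grey band holds the central 90% of all measured genes. In both comparisons of CKO 4OHT, Gsta3, Gstm1, Mgst1 and Cyp1b1 lie below -1 and Gsta4 above 1.

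The probe sets show how far each value can be relied on. Of the 20, 14 reached the median of the table and 6 stayed at 9.29 or less on every array. The genes Gsta4, Aldh3a1, Hmox1 and Nqo1 were read by a single probe set each. Where a gene had a second set above the median (Gstm1, Gsto1 and Aldh1a3), the sign against CKO EtOH was the same and the sizes differed. The lower values of Mgst1, Gsta3 and Cyp1b1 rest on 1 probe set each, since their other sets were dim.

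**Figure D3:**
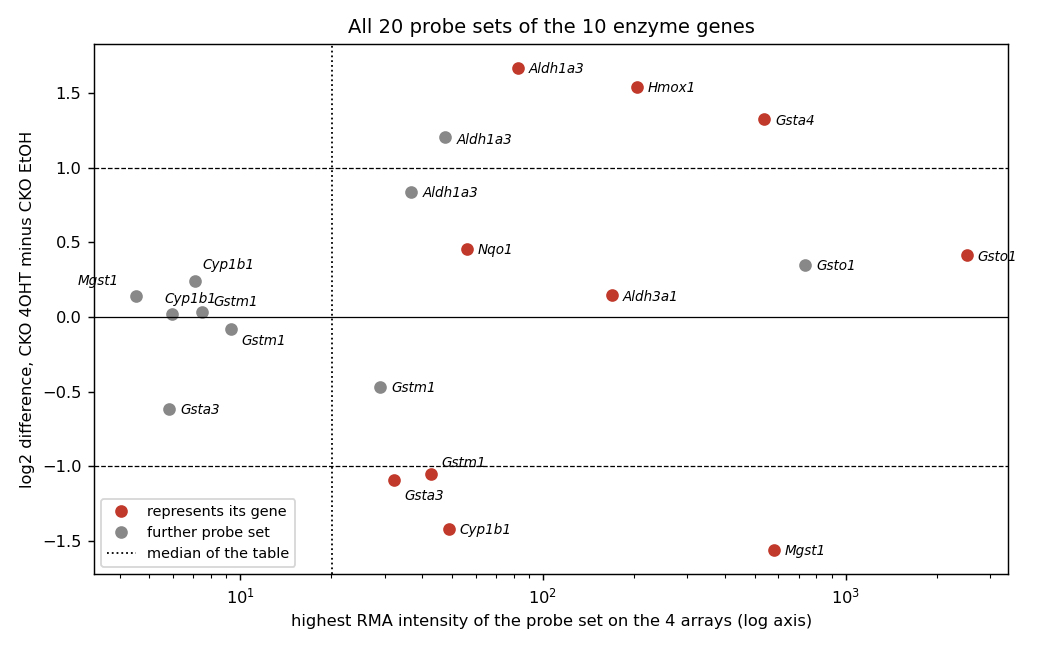
Highest intensity on the 4 arrays (horizontal log axis) and log2 difference of CKO 4OHT minus CKO EtOH (vertical axis) for all 20 probe sets, red for the set that represents its gene. The 6 sets left of the dotted line, the median of the table, have no difference of 2-fold.

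The drug effect with CreER was set beside that without it, and these effects share no array. The difference of the drug effects (with CreER minus without) was -2.08 for Cyp1b1, -1.68 for Mgst1, -1.26 for Gsta3 and -1.06 for Aldh3a1, all lower past 2-fold, and 1.62 for Gsta4, the 1 higher gene. It was just under the threshold for Hmox1, at 1.99-fold, and was 0.96 for Aldh1a3 and -0.97 for Gstm1. Of all measured genes 2.75% were higher and 2.9% lower. Cyp1b1 combined a lower level with the drug in CKO cells (-1.42) with a higher level with the drug in control cells (0.67), whereas the Aldh3a1 value came from the control cultures. For Gsta3, Gsta4, Mgst1 and Cyp1b1 the drug effects were both of opposite sign and at least 2-fold apart, as for 4.72% of all measured genes.

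**Figure D4:**
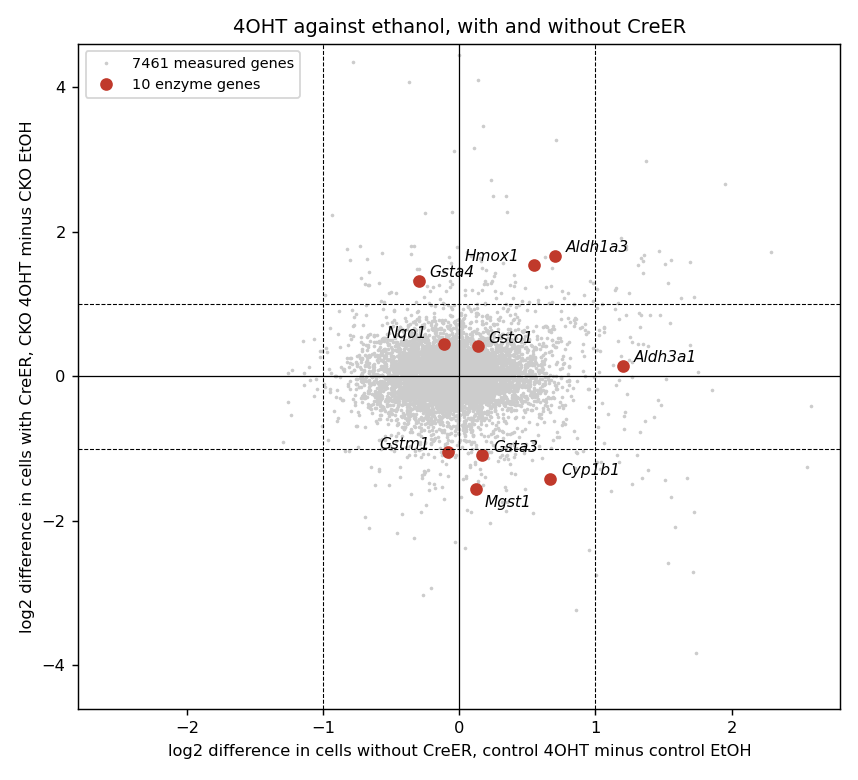
Log2 difference of 4OHT minus ethanol in cells with CreER (vertical axis) and in cells without it (horizontal axis) for 7461 measured genes in grey and the 10 enzyme genes in red, with dashed lines at 2-fold. Aldh3a1 lies right of 1, while Mgst1, Gsta3 and Gstm1 lie below -1 near the vertical zero line.

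The same pathways were followed through 9 lists of other genes, 113 of which were measured. Of these 113, 3 were higher and 5 lower against CKO EtOH, which is 2.65% and 4.42%, beside 1.78% and 1.86% of all measured genes. Against control 4OHT, 2 were higher and 7 lower, which is 1.77% and 6.19%, beside 1.45% and 2.24% of all measured genes. The shares of higher and of lower genes were thus both above those of all measured genes, with the wider gap for lower genes, from few genes and without a test. The lists were chosen with earlier results of these data known, so these shares are descriptions and no independent support. The 7 lower genes include Crabp2, for which control 4OHT was the array that differed. They also include Aldh6a1 and Slc40a1, which reached the median of the table only in control cultures. The median differences of the 113 genes were -0.06 and -0.08, beside 0.01 for all measured genes.

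In glutathione turnover, 18 genes were measured. Gsr, which reduces oxidised glutathione, was at 83.3 in CKO 4OHT, with 39.6 to 51.4 elsewhere, 1.07 above CKO EtOH and 0.84 above control 4OHT. Its second probe set had 0.97 and 0.98, just under 2-fold in both comparisons. Oplah, the oxoprolinase that returns glutamate for glutathione synthesis, was at 34.5 in CKO 4OHT against 94.0 to 120 elsewhere, with -1.74 against CKO EtOH and -1.80 against control 4OHT. The synthesis gene Gclc, the catalytic subunit of the rate-limiting ligase, was named after its values were seen. Its main probe set was at 490 in CKO 4OHT against 862 to 997 (-0.93 against CKO EtOH), and its second set differed by -1.02. Glrx, a glutaredoxin, differed with the drug in control cells instead, at 728 in control 4OHT and 303 in control EtOH.

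Of 9 further glutathione S-transferases, Gstm2 was lower against CKO EtOH (-1.05) and none was higher. The level of Gstm2 in CKO 4OHT, 14.9, was under the median of the table. Of 17 thioredoxin, peroxiredoxin, dismutase and catalase genes none passed 2-fold against CKO EtOH (median -0.14) or against control 4OHT (median 0.03). Txn1, thioredoxin, differed by -0.02 against CKO EtOH and Txnip, its inhibitor, by -0.79. None of 14 regulators of NRF2 and BACH1 passed 2-fold in any comparison. The brightest were Atf4, a stress response factor, with -0.23 against CKO EtOH, and Sqstm1, which binds KEAP1, with 0.22, and Nfe2l2, which encodes NRF2, was at 460 in CKO 4OHT, 469 in CKO EtOH, 325 in control 4OHT and 442 in control EtOH.

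Of 18 dehydrogenase and aldo-keto reductase genes, Akr1c18, a steroid dehydrogenase that inactivates progesterone, was higher and Adh7, an alcohol dehydrogenase of surface epithelia that also oxidises retinol, was lower. Akr1c18 was at 63.9 in CKO 4OHT against 16.1 to 24.9 elsewhere, 1.66 above CKO EtOH and 1.36 above control 4OHT. Adh7 was at 31.3 against 76.6 to 91.0, with -1.32 and -1.29. Aldh6a1, a dehydrogenase of valine breakdown, was lower against control 4OHT only (-1.33, and -0.74 against CKO EtOH). It was at 11.9 in CKO 4OHT, 19.8 in CKO EtOH, 29.9 in control 4OHT and 24.4 in control EtOH. Both CKO values were under the median of the table, so Aldh6a1 could be counted only through the control cultures, where it was high. Within the retinoid list, Crabp2, a carrier of retinoic acid, was at 108 in CKO 4OHT, 112 in CKO EtOH, 249 in control 4OHT and 110 in control EtOH, so the drug-treated control was the array that differed.

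Other cytochrome P450 genes shared the direction of Cyp1b1. Cyp2s1, an epithelial P450 that the aryl hydrocarbon receptor induces, was at 44.2 in CKO 4OHT against 127 to 159, with -1.74 and -1.84 against CKO EtOH and control 4OHT. Cyp4b1 was at 21.3 against 46.8 to 65.5, with -1.56 and -1.62. Of 8 measured genes of that list these were the ones past 2-fold by the probe set that represents each gene. Tiparp, another known target of the receptor, lay on the other side, at 227 in CKO 4OHT against 132 to 165 elsewhere, with 0.78 and 0.64. Its further probe sets had 0.94 and 0.86 against CKO EtOH, and 1 of them had 1.31 against control 4OHT, so the genes of the list had no common direction. Tiparp was chosen after its values were seen. Ahr, the receptor itself, differed by -0.32 against CKO EtOH and -0.84 against control 4OHT, and Cyp1a1, its most used target, was at 5.24 to 5.88 on all arrays, near the floor.

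Around heme and iron, Tfrc, the transferrin receptor that imports iron, was at 226 in CKO 4OHT, 73.7 in CKO EtOH, 69.7 in control 4OHT and 112 in control EtOH. It was 1.62 above CKO EtOH and 1.70 above control 4OHT, the 1 gene of 13 that was higher. Slc40a1, the iron exporter ferroportin, had -1.12 against control 4OHT and -0.42 against CKO EtOH. It reached the median of the table in control 4OHT alone, so it could be counted only where that array was high, and its second probe set had -0.36 and 0.21 against the same cultures, so its sign against CKO EtOH was opposite. Hmox2, the constitutive heme oxygenase, was at 134 to 137 on all arrays. Of 8 genes that supply NADPH none passed 2-fold in either comparison by its representing probe set. A second set of Idh1, a cytosolic isocitrate dehydrogenase, also chosen after its values were seen, was at 32.3 in CKO 4OHT against 74.4 to 83.1 elsewhere, with -1.33 against CKO EtOH and -1.36 against control 4OHT. The representing set of Idh1 had -0.51 and -0.71. Me1, malic enzyme, had a difference of the drug effects of -1.21.

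**Figure D5:**
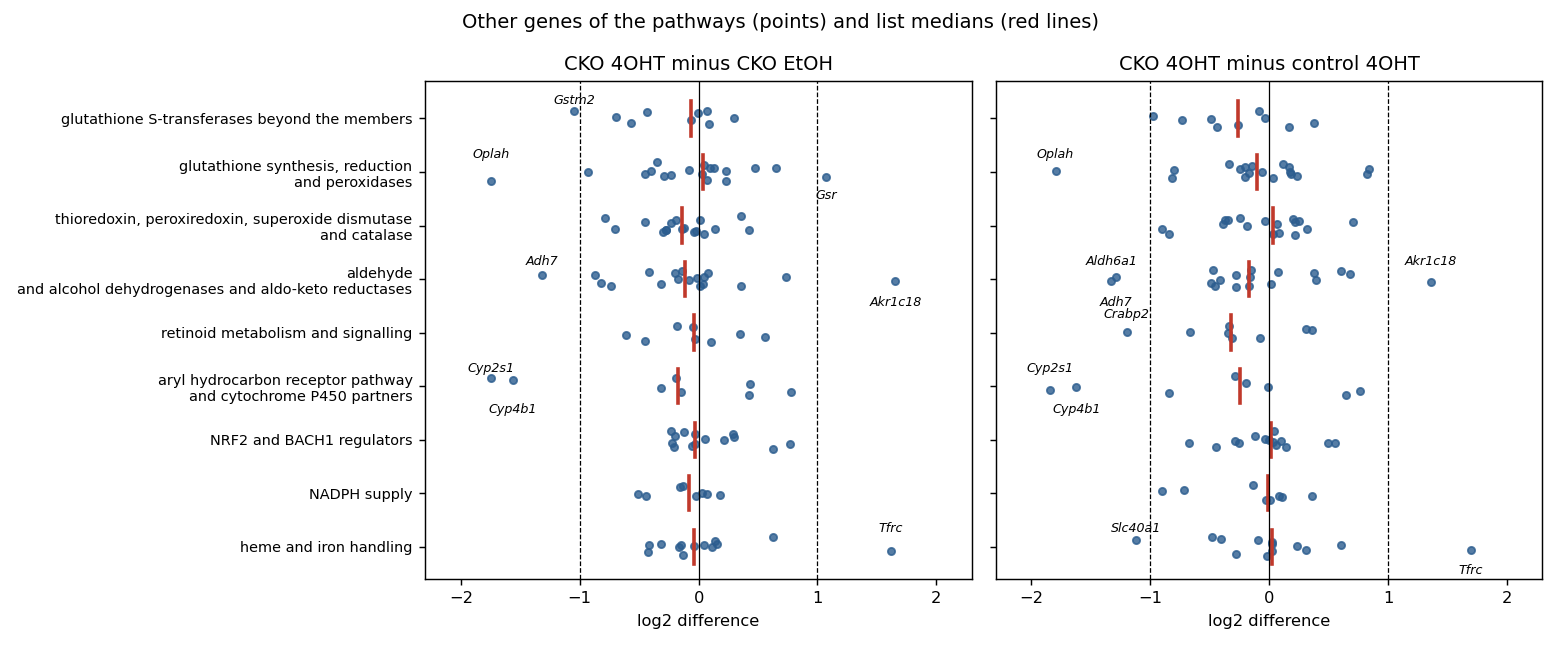
Log2 differences (horizontal axis) of measured genes in 9 pathway lists, 1 point per gene, for CKO 4OHT minus CKO EtOH on the left and CKO 4OHT minus control 4OHT on the right, with dashed lines at 2-fold and red lines at list medians. List medians lie between -0.32 and 0.04, and named genes are those past 2-fold.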

How the data were processed

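Total RNA of 4 keratinocyte cultures was labelled by a 3′ in vitro transcription kit and hybridised to the Affymetrix Mouse Expression Array 430A, per the labels' protocols. The deposited values are intensities on a linear scale, made by the authors with RMA, per the submitters' processing notes; RMA includes background correction, quantile normalization and a summary per probe set. Its version: not given in the sources used here. A shift of most transcripts would be lost by it, dim differences are compressed, and no detection calls were used. Array medians were 19.95 to 20.22.

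Differences are of log2 intensities without a pseudocount (Python 3.11.15, numpy 2.4.6, pandas 2.3.3). Names came from the platform annotation, which gave 1 gene for 20380 of 22626 probe sets, several for 691 and none for 1555. A gene was read by its probe set with the highest mean, and counted as measured when its highest value reached 20.04, the median of the table. No test was run, since each group had 1 array. Counts use a difference of at least 2-fold, and the counting step was tested on simulated data.

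Named are the 10 enzyme genes, Prdm1, pathway list genes past 2-fold in a comparison, the 2 brightest of a list with none, and, for genes spanning at least 2-fold, the 3 genes of nearest profile. Marker genes, Nfe2l2, Ahr, Cyp1a1, Hmox2, Gclc, Tiparp and Idh1 were added beside this rule. The members and lists were chosen with earlier results of these data known. Alternatives covered the probe set, the level minimum, a pseudocount, the scaling and the threshold.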

Additional observations from a re-analysis of the deposited data

Results flagged for a closer look

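For 4 of the 10 enzyme genes the drug difference had opposite signs in cells with and without CreER and the effects lay at least 2-fold apart, as they did for 4.72% of all measured genes. With 1 array per group, these differences were not tested. The difference of the drug effects was -2.08 for Cyp1b1, from -1.42 with CreER and 0.67 without. It was -1.68 for Mgst1, from -1.56 and 0.12, and -1.26 for Gsta3, from -1.09 and 0.17. For Gsta4 it was 1.62, from 1.32 and -0.30. For Mgst1, Gsta3 and Gsta4 the value without CreER was small, so its sign carries little.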

How the results depend on the processing

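With 4 arrays of 1 per group, no replicate could be left out, and depth does not apply; dim signal is the limit, as for Gsta3, Gstm1 and Cyp1b1 in CKO 4OHT. No paired analysis was possible because each group holds 1 sample. The counts of members past 2-fold were 7 against CKO EtOH, 5 against control 4OHT, 1 for the drug in control cells, 0 between solvent cultures, 5 for the difference of the drug effects and 4 for CKO 4OHT apart from every other array. Of all measured genes, 3.65%, 3.69%, 1.51%, 0.0536%, 5.64% and 1.84% passed, in that order. The mean of all probe sets of a gene left 7 members measured, with 3 against CKO EtOH, 1 against control 4OHT, 2 for the difference of the drug effects and 0 apart, because Gsta3, Gstm1 and Cyp1b1 then miss the level minimum and the Mgst1 difference becomes -0.71. Of all genes measured that way, 3.3%, 3.33%, 5.0% and 1.54% passed, in that order. A minimum at the 75th percentile, which leaves out the same 3 genes and Nqo1, gave 4, 2, 3 and 1 in the same order, and log2(value + 16) gave 4, 3, 3 and 1. The shares of all measured genes were 4.15%, 4.05%, 6.14% and 2.02% with that minimum, and 1.88%, 1.97%, 2.91% and 0.898% with log2(value + 16). A 1.5-fold threshold gave 3 for the drug in control cells, 1 between solvent cultures, 8 for the difference of the drug effects and 7 apart. The shares of all measured genes rose as well at that threshold, to 7.87%, 1.34%, 19.6% and 5.67%. A 3-fold threshold gave 1, 1, 0, 3 and 0, in the order of the main counts without the solvent cultures, beside 0.965%, 1.09%, 0.201%, 1.65% and 0.483% of all measured genes. Quantile normalization, median centring, no level minimum and the dimmer measured probe set kept each count within 1.5 times. Of 235 member differences recomputed, 8 moved by 1.5 times or more and 0 past 2-fold changed sign.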

Other observations

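For each enzyme gene that spanned at least 2-fold, the genes of nearest profile over the 4 arrays were listed by the root mean square difference of centred log2 values. A match over 4 points can arise easily, so these are descriptions. Cryab, a small heat shock protein, was nearest to both Hmox1 (0.06) and Aldh1a3 (0.07), with 380 in CKO 4OHT, 134 in CKO EtOH, 222 in control 4OHT and 139 in control EtOH. Cysrt1 was among the nearest 3 of both genes, at 853 in CKO 4OHT against 362 to 567 on the others. Hmox1 and Aldh1a3 thus shared a profile that is highest with CreER and drug, next with drug alone, and lowest in both solvent cultures.

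Aldh3a1 was nearest to Lypd3 (0.04), Ppp6r2 (0.08) and Krtdap (0.10), of which Krtdap is known from differentiating keratinocytes. Krtdap was at 1354 in CKO 4OHT, 1065 in CKO EtOH, 1580 in control 4OHT and 770.4 in control EtOH. Mgst1 was nearest to Il6st (0.05), a cytokine receptor subunit at 123 in CKO 4OHT against 299 to 346, then Sostdc1 and Ctsc. Gstm1 was nearest to Adamts1 (0.03), Gstm2 (0.04) and Hfe. Gsta3 was nearest to Rcan1 (0.03), Fgf21 and Pdlim4, Gsta4 to Ercc1 (0.07), Swap70 and Rab20, and Cyp1b1 to Psmb8 (0.13), Tbx1 and Lpo.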
